A study of Mus musculus with 4 samples.

Results

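The 9 genes followed here encode chemokine ligands that activated CD8+ T cells can make or that are known for interferon and type 17 responses: *Ccl1*, *Ccl3*, *Ccl4*, *Ccl5*, *Ccl9*, *Ccl20*, *Xcl1*, *Cxcl9* and *Cxcl10*. They were named by symbol, and each of the 9 had a single probe set on the array, among 19938 genes with a probe set of their own. The study cultured CD8+ T cells of wild-type C57BL/6 mice, taken from spleen and lymph node by magnetic negative selection and described as naive, for 2 days and measured their RNA on Affymetrix arrays. CTL (cytotoxic T lymphocyte) cultures held IL-2 and anti-IFN-γ, an antibody that neutralizes interferon-γ, and Tc17 cultures, which turn CD8+ T cells into IL-17 producers, held these as well as IL-6 and TGF-β. An antibody against interferon-γ was thus present in both groups. The study's methods add that Tc17 cells were stimulated through CD3, by an antibody fixed to the plate, and through CD28, and the mice were young adults matched for age and sex. There were 2 CTL and 2 Tc17 arrays, labeled as biological replicates, without a statement on whether the animals differed, and the p-values cover only the variation among these cultures. The comparison asks which chemokine transcripts tell Tc17 cells from CTLs.

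Chemokines are small secreted proteins that attract leukocytes through G protein-coupled receptors, and they are classed by the spacing of the cysteines near their start into the C, CC and CXC groups. Stimulated CD8+ T cells are known to release CCL3, CCL4 and CCL5, which attract T cells and monocytes, and XCL1, which attracts the XCR1-bearing dendritic cells that cross-present antigen. CXCL9 and CXCL10 are induced by interferons and bind CXCR3, while CCL20 binds CCR6, a receptor associated with type 17 cells.

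Values are RMA intensities, taken as log2, so that a difference of 1 is a doubling, and levels are not compared between genes. Array medians lay between 3.18 and 3.20, and across the 14953 genes tested the arrays of a group correlated at 0.993 in CTL and 0.993 in Tc17 cells, against 0.967 to 0.973 between groups, a correlation over genes that are not independent replicates. Genes with a mean under 2.591 were left out of the test as dim. The CD8+ T cell markers were bright on every array, with *Cd8a* from 9.21 to 10.08 and *Cd3e* from 7.96 to 8.98. The samples are bulk cultures, in which fewer cells making a transcript and less RNA per cell cannot be told apart.

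The chemokine ligands split between the groups. Tc17 cells carried 9.24-fold less *Ccl5* and 3.98-fold less *Cxcl10* than CTLs, and 3.27-fold more *Xcl1* and 1.85-fold more *Ccl4*. *Ccl3* differed by 0.10 ± 0.18 (log2 difference ± SE) and did not pass the test, nor did *Ccl1*, *Ccl9* and *Ccl20*, and *Cxcl9* was too dim to test. Of the 8 ligands that could be tested, 2 were higher and 2 lower in Tc17 cells at a limma adjusted p under 0.05, where 8.22% of all tested genes were higher, 7.44% lower and 15.7% passed in either direction. The groups did not overlap for 7 of these 8 genes, against 54.4% of all tested genes. Among the 7 is *Ccl20*, whose CTL mean of 2.51 lay under 2.591, so that it was tested only through its Tc17 arrays. The median log2 difference, *Ccl20* included, was 0.31 over the 8 ligands and 0.02 over all tested genes. The ligands were chosen with earlier results of these data known, so these comparisons with all genes are descriptions and not independent tests. An exact permutation test with 2 arrays against 2 cannot give a p below 0.333, so the calls rest on the variance that limma shares across genes.

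**Figure D1:**
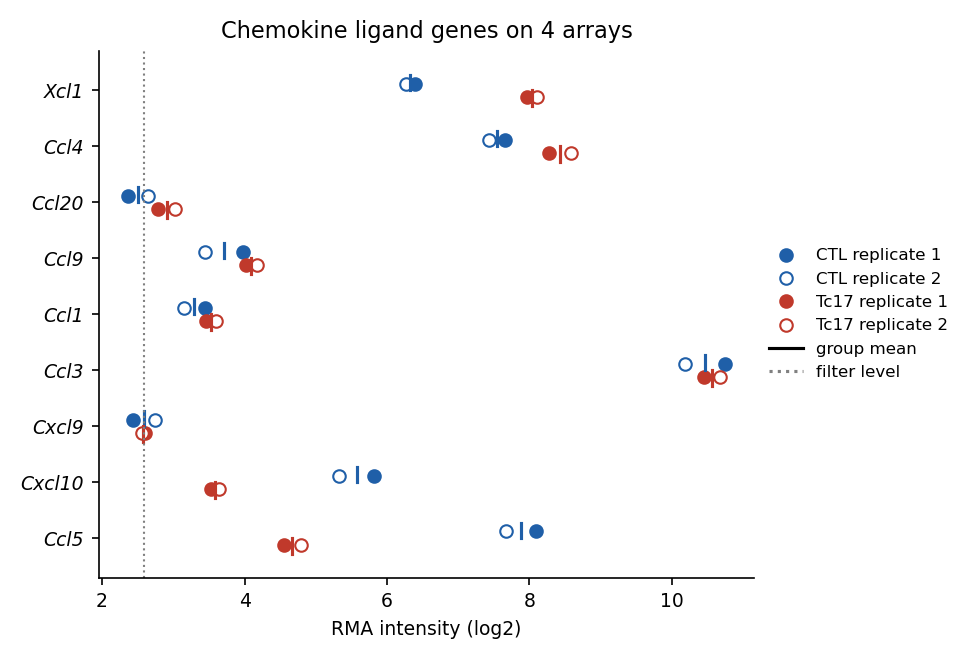
RMA intensity (log2, horizontal axis) of the 9 chemokine ligand genes, sorted by the size and sign of the difference. Each circle is 1 array (CTL in blue, Tc17 in red, replicate 1 filled, replicate 2 open), bars mark group means and the dotted line marks 2.591, under which genes were not tested. *Ccl5* and *Cxcl10* lie lower and *Xcl1* and *Ccl4* higher on both Tc17 arrays, while the groups overlap for *Ccl3* and *Cxcl9*.

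*Ccl5* encodes RANTES, a chemokine that is typical of memory and effector CD8+ T cells. Its probe set 10389207 read 8.09 and 7.67 on the CTL arrays and 4.55 and 4.79 on the Tc17 arrays. Both Tc17 arrays lay far below both CTL arrays, with array by array differences from -3.54 to -2.88. The mean fell from 7.88 ± 0.30 to 4.67 ± 0.17 (SD, n = 2 per group), a log2 difference of -3.21 ± 0.16 (limma adjusted p = 3.97e-07). The 95% interval of the fall was 7.22-fold to 11.8-fold. Of all tested genes, 2 had a larger decrease. The Tc17 arrays still lay above the level for testing.

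*Cxcl10* encodes a CXCR3 ligand that draws in type 1 T cells and is a common target of interferon signaling. Probe set 10531415 read 5.82 and 5.33 in CTLs and 3.53 and 3.64 in Tc17 cells. Every Tc17 array was lower than every CTL array, with differences from -2.29 to -1.69. The mean went from 5.58 ± 0.35 to 3.58 ± 0.08 (SD, n = 2 per group), a difference of -1.99 ± 0.16 (limma adjusted p = 1.83e-05), or 3.10-fold to 5.12-fold at the 95% interval. Only 26 tested genes had a larger decrease. *Cxcl9*, which encodes the related CXCR3 ligand induced mainly by interferon-γ, read 2.44 and 2.75 in CTLs and 2.60 and 2.56 in Tc17 cells. The groups overlapped, and with a mean over the arrays of 2.586 it lay just under the level for testing, so it was not tested. Without a filter its difference was -0.02 (limma adjusted p = 0.972). The third gene of this group, *Cxcl11*, was at background too, with group means of 2.42 and 2.46.

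*Xcl1* encodes lymphotactin, the C chemokine that binds XCR1 on cross-presenting dendritic cells. Probe set 10359697 read 6.39 and 6.27 in CTLs and 7.96 and 8.11 in Tc17 cells. The replicates lay close together and the groups were apart by 1.57 to 1.85. The mean rose from 6.33 ± 0.09 to 8.04 ± 0.11 (SD, n = 2 per group), a difference of 1.71 ± 0.13 (limma adjusted p = 1.10e-05) and 2.67-fold to 3.99-fold at the 95% interval. There were 72 tested genes with a larger increase.

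Promoter sequences, from 250 bases before to 50 after the transcript start, were read from a table made from RefSeq (GRCm38.p6), which was matched for 7 of the 9 ligands, and those of *Ccl4* and *Ccl5* were not analysed here. They were searched on both strands for GAAANNGAA, a core of interferon-stimulated elements, TTCNNNGAA, a STAT site, GGNNNTTCC, a pattern of NF-κB sites, and GGTGTGA, a T-box site. Of the 32851 promoters in the table, 8.56% held the first, 8.30% the second, 18.5% the third and 3.98% the fourth. The promoters of *Cxcl10* and its neighbor *Cxcl9* are shown because 1 of these transcripts was lower in Tc17 cells and the other was at background, and that of *Xcl1* because it rose most. The matches are in capitals and do not overlap. The *Cxcl10* window lies at chr5:92348840-92349139, that of *Cxcl9* at chr5:92328030-92328329 and that of *Xcl1* at chr1:164935473-164935772, each on the minus strand and written 5′ to 3′.
Cxcl10: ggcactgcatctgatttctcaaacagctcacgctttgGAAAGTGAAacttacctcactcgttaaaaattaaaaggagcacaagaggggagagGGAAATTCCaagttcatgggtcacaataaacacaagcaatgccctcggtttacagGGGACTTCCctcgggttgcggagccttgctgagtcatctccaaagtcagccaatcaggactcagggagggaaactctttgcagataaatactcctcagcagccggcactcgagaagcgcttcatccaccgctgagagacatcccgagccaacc
Cxcl9: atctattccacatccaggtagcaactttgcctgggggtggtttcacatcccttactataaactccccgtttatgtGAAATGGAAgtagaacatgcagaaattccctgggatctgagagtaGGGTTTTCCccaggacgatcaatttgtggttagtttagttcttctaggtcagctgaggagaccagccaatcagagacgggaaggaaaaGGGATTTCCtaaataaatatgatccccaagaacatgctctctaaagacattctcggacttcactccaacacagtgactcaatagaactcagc
Xcl1: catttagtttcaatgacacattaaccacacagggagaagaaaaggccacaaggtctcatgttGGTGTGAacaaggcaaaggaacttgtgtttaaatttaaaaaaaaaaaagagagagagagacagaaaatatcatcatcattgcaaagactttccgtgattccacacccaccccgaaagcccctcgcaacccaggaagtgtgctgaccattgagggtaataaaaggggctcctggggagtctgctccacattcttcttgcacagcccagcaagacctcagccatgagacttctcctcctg

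The *Cxcl10* window holds 1 match to the interferon-stimulated pattern, GAAAGTGAA, which begins 213 bases before the start, and 2 to the NF-κB pattern, GGAAATTCC and GGGACTTCC, which begin 158 and 103 bases before it. The *Cxcl9* window holds the same numbers, with GAAATGGAA at 175 bases and GGGTTTTCC and GGGATTTCC at 130 and 42 bases before the start. The *Xcl1* window holds neither, and has 1 T-box match that begins 188 bases before the start. In the remaining 4 windows, the interferon-stimulated pattern was found once for *Ccl1* and once for *Ccl3*, the NF-κB pattern once each for *Ccl1*, *Ccl9* and *Ccl20*, and the T-box pattern once for *Ccl20*. The STAT pattern was in none of the 7. A match describes the letters of the window and not a site in use.

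*Ccl4* and *Ccl3* encode MIP-1β and MIP-1α, close relatives that activated T cells secrete. *Ccl4* (probe set 10379721) read 7.66 and 7.43 in CTLs and 8.28 and 8.58 in Tc17 cells. It was higher on both Tc17 arrays, by 0.62 to 1.15, with a difference of 0.88 ± 0.15 (limma adjusted p = 0.00212) and 1.47-fold to 2.32-fold at the 95% interval. This call was lost when every row of the table was tested (adjusted p = 0.0778). *Ccl3* (probe set 10389231) read 10.74 and 10.19 in CTLs and 10.45 and 10.68 in Tc17 cells. Its Tc17 arrays lay inside the span of the CTL arrays, and the difference of 0.10 had a 95% interval from -0.29 to 0.50 (limma adjusted p = 0.782), so the interval reached from 0.818-fold to 1.41-fold. The gap between *Ccl4* and *Ccl3* within an array, chosen after the values were seen, was -3.08 and -2.76 in CTLs and -2.17 and -2.10 in Tc17 cells. It did not overlap between the groups and moved by 0.78, so the *Ccl4* to *Ccl3* signal ratio was 1.72-fold higher in Tc17 cells. Cross-hybridization between such related transcripts was not tested.

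*Ccl20* encodes the CCR6 ligand that type 17 CD4+ T cells are known to make. It read 2.37 and 2.65 in CTLs and 2.79 and 3.03 in Tc17 cells. The groups did not overlap, but the difference of 0.40 ± 0.15 missed the threshold (limma adjusted p = 0.0963). The CTL mean of 2.51 lay under 2.591, so *Ccl20* was tested only through its Tc17 arrays, and differences this close to background are compressed. *Ccl9*, a CCR1 ligand that myeloid cells produce in quantity, read 3.98 and 3.44 in CTLs and 4.02 and 4.17 in Tc17 cells, a difference of 0.38 ± 0.17 (limma adjusted p = 0.181). The lowest Tc17 array was only 0.04 above the highest CTL array. Without CTL replicate 1 the difference of *Ccl9* was 0.65 and passed (adjusted p = 0.0297). *Ccl1*, the ligand of CCR8, read 3.44 and 3.15 in CTLs and 3.46 and 3.60 in Tc17 cells, with a difference of 0.23 ± 0.14 (limma adjusted p = 0.341) and a closest gap of 0.02. None of these 3 genes passed with all arrays.

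The arrays of a group differed for these genes in a shared direction. CTL replicate 1 was above CTL replicate 2 for 7 of the 9 ligands, and Tc17 replicate 1 was below Tc17 replicate 2 for 8 of 9. Of all tested genes, 54.0% were higher on CTL replicate 1 and 45.1% lower on Tc17 replicate 1. The median gap between the CTL arrays was 0.32 over the ligands and 0.14 over all tested genes, and between the Tc17 arrays it was 0.15 and 0.14. With each array left out in turn, the difference of *Ccl5* stayed between -3.42 and -3.0, that of *Cxcl10* between -2.24 and -1.75, that of *Xcl1* between 1.63 and 1.78 and that of *Ccl4* between 0.73 and 1.04, and these 4 calls were kept. *Ccl3* differed by -0.17 when CTL replicate 2 was left out and by 0.38 when CTL replicate 1 was, so its direction was not settled.

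**Figure D2:**
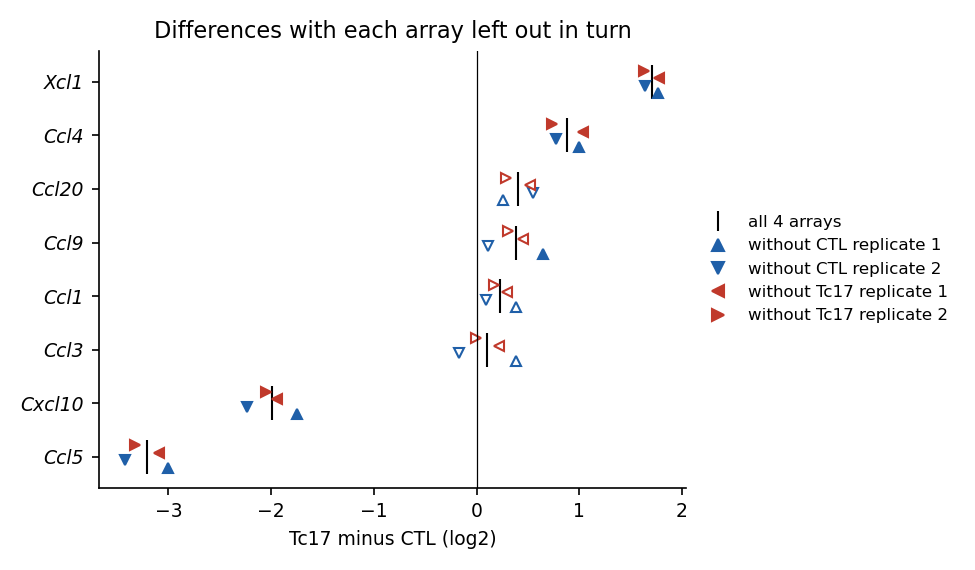
Tc17 minus CTL (log2, horizontal axis) for the 8 tested chemokine ligands with all 4 arrays (black bars) and with each array left out (triangles, blue where a CTL and red where a Tc17 array was left out). Filled triangles passed a limma adjusted p of 0.05 and open ones did not. *Ccl5*, *Cxcl10*, *Xcl1* and *Ccl4* passed in each of these fits, *Ccl9* passed in 1 of them, and *Ccl3* changed sign.

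Several of these genes are neighbors on a chromosome, by the order of genes in RefSeq (GRCm38.p6), which was used for the order only. On chromosome 11 the ligand genes follow each other as *Ccl5*, *Ccl9*, *Ccl6*, *Ccl3* and *Ccl4*. Their log2 differences in this order were -3.21, 0.38, 0.02, 0.10 and 0.88. The stretch was drawn from *Ccl5* to *Ccl4*, so their places at its ends were set by this choice and are not a result. The within-array gap between *Ccl4* and *Ccl5*, also chosen after the values were seen, went from -0.42 and -0.24 in CTLs to 3.73 and 3.79 in Tc17 cells, a 17.1-fold change of their signal ratio. *Ccl1* belongs to another cluster of chromosome 11, after *Ccl2*, *Ccl7*, *Ccl11*, *Ccl12* and *Ccl8*. *Ccl2*, *Ccl12* and *Ccl8* were too dim to test, and *Ccl1*, *Ccl7* (-0.20) and *Ccl11* (0.14) did not pass. On chromosome 5, *Cxcl10* lies between *Cxcl9* and *Cxcl11* and was the only 1 of the 3 above the level for testing.

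**Figure D3:**
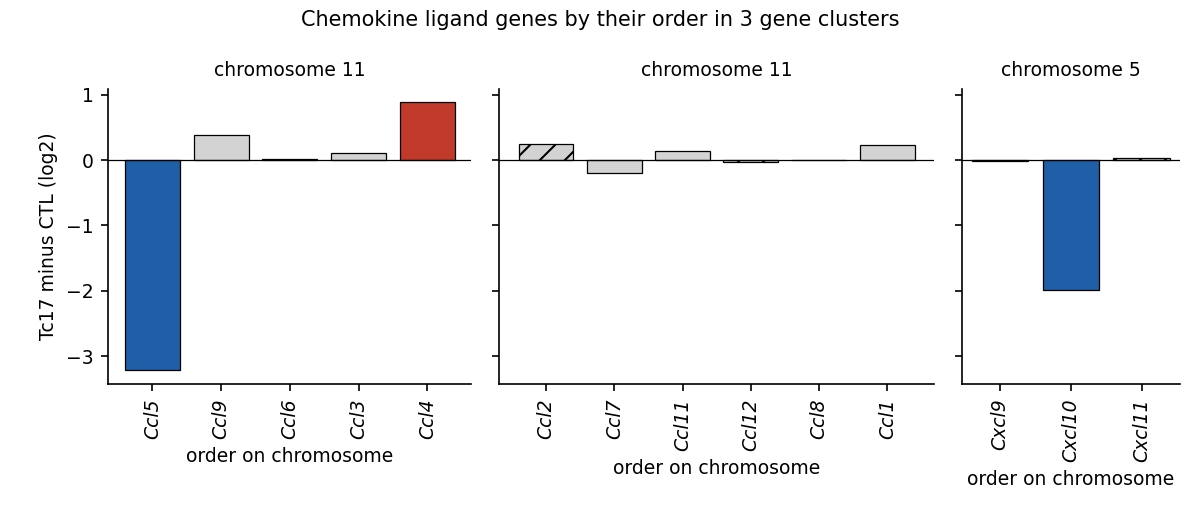
Log2 difference between Tc17 and CTL arrays (vertical axis) of chemokine ligand genes in their order along 2 clusters of chromosome 11 and 1 of chromosome 5. Blue bars were lower and red bars higher in Tc17 cells at a limma adjusted p under 0.05, plain grey bars did not pass and hatched bars were too dim to test (*Ccl8*, at -0.00, has no visible bar). *Ccl5* and *Ccl4*, which were chosen as the ends of 1 stretch, had differences of -3.21 and 0.88.

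Of the other mouse chemokine ligands, 27 of 31 had a probe set of their own and 15 could be tested. None of the 15 differed in limma at an adjusted p under 0.05, and none had an unadjusted p under 0.05 (lowest limma adjusted p = 0.378), where 15.7% of all tested genes passed. Their differences lay between -0.20 and 0.18, with a median of -0.02. Their values on all arrays, those under the level for testing included, lay between 1.94 and 4.16, in the lower part of a table that ran from 1.18 to 13.70. Differences this close to background are compressed, so the lack of calls does not show that these transcripts were unchanged.

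**Figure D4:**
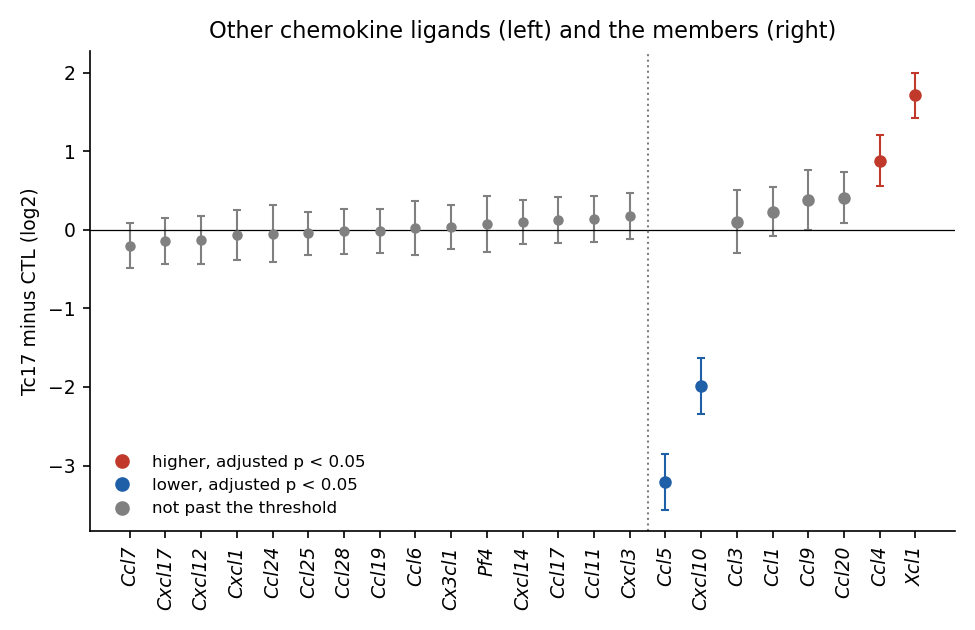
Log2 difference between Tc17 and CTL arrays (vertical axis) of 15 other tested chemokine ligands (left of the dotted line) and the 8 tested ligands followed here (right). Points are limma estimates and bars their unadjusted 95% intervals, red and blue where the adjusted p was under 0.05 (higher and lower in Tc17 cells) and grey elsewhere. The other ligands lie between -0.20 and 0.18, and *Ccl5* lies at -3.21 and *Xcl1* at 1.71.

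Among 9 measured chemokine receptor genes, a list that held receptors of these ligands and a few related ones, 6 could be tested, of which 2 were higher and 2 lower in Tc17 cells (15.7% of all tested genes passed in either direction). *Cxcr3*, the receptor of CXCL9 and CXCL10, was at 5.08 and 5.08 in CTLs and at 7.03 and 6.73 in Tc17 cells, opposite in direction to *Cxcl10* (1.80 ± 0.14, limma adjusted p = 1.17e-05), and *Ccr8*, the receptor of CCL1, was higher by 0.98 ± 0.18 (limma adjusted p = 0.00389). The atypical receptor gene *Ccrl2* (-1.76 ± 0.16, limma adjusted p = 4.13e-05) and *Ccr4*, known as the receptor of CCL17 and CCL22 (-1.13 ± 0.17, limma adjusted p = 0.00107) were lower, and *Xcr1* and *Ccr1* were too dim to test. *Ccr6*, the receptor gene of CCL20, read 3.19 and 2.85 in CTLs and 3.43 and 2.91 in Tc17 cells. The groups overlapped and it did not pass (0.15 ± 0.18, limma adjusted p = 0.68), at a mean of 3.095 near the level for testing. *Ackr2* did not pass either (-0.15 ± 0.13, limma adjusted p = 0.497).

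A list of regulators held transcription factor genes known to act on chemokine genes, along with *Ifng*, *Tnf* and the interferon-γ receptor genes *Ifngr1* and *Ifngr2*. Of its 16 tested genes, 5 were higher and 5 lower in Tc17 cells, where 8.22% and 7.44% of all tested genes were. This list, as the receptor and marker lists, was chosen with earlier results of these data known, so its share of calls is a description only. The largest falls were in *Ifng*, which encodes interferon-γ, with 10.57 and 10.08 in CTLs against 5.91 and 6.24 in Tc17 cells, and in *Eomes*, a T-box factor of effector CD8+ T cells, with 6.26 and 5.68 against 3.07 and 3.73. The largest increases were in *Ifngr1*, a chain of the interferon-γ receptor (1.87 ± 0.16, limma adjusted p = 2.13e-05), and in *Rora*, a factor of type 17 cells (1.76 ± 0.13, limma adjusted p = 9.78e-06). The other increases were in *Ifngr2* (1.49), *Klf13* (0.78) and *Stat3* (0.68), and the other falls in *Tnf* (-0.83), *Irf8* (-0.60) and *Rel* (-0.60), named here beyond the rule so that all 10 are given. Leaving out CTL replicate 1 ended the calls of *Irf8* (-0.59) and *Rel* (-0.54), and *Irf8* also missed the threshold when CTL replicate 2 (-0.61) or Tc17 replicate 1 (-0.43) was dropped. The part of these genes in the chemokine differences was not tested.

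The genes whose values over the 4 arrays were most like those of *Xcl1*, by Euclidean distance after each gene's mean was subtracted, were *Gpr15*, a homing receptor gene (0.09), *Il17ra*, a chain of the IL-17 receptor (0.10), and *Lrig1* (0.12). Those nearest to *Ccl5* were *Usp18*, an interferon-induced protease gene (0.20), *Atf3*, a stress-induced transcription factor gene (0.40), and *Csf2*, which encodes GM-CSF (0.42). With 4 arrays in 2 groups, this distance mainly compares the sizes of the group differences.

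Markers of other cells were examined because *Ccl9*, *Cxcl9* and *Cxcl10* are also products of myeloid cells. Of 7 macrophage and monocyte markers, 4 could be tested and 1 was higher in Tc17 cells, *Cd68* (1.01 ± 0.17, limma adjusted p = 0.00236), where 8.22% of all tested genes were. *Csf1r* (mean over the 4 arrays 2.89), *Itgam* (2.64) and *Fcgr1* (2.78) lay just above the level for testing and did not pass, and *Cd14*, *Adgre1* and *Lyz2* lay under it. The mean of the list was 2.81 and 2.86 on the CTL arrays and 3.0 and 2.88 on the Tc17 arrays. Of 6 dendritic cell markers, 3 could be tested, *Itgax* (2.88), *Flt3* (2.76) and *Zbtb46* (3.34), and none passed. *Clec9a*, *Siglech* and *Cd209a* lay under the level for testing, and the list means ran from 2.62 to 2.75. Of 5 neutrophil markers, all tested, *Ly6g* was higher in Tc17 cells, with 2.46 and 2.27 in CTLs against 4.38 and 3.50 in Tc17 cells (limma adjusted p = 8.50e-04). Its CTL arrays lay under the level for testing, so it was tested only through its Tc17 arrays and the size of the difference is not settled. *S100a8*, *S100a9*, *Csf3r* and *Mpo* did not pass, and the list means were 2.74 and 2.52 in CTLs and 3.11 and 2.78 in Tc17 cells. The 3 measured NK cell markers were all under the level for testing. Of the 2 tested B cell markers none passed, with *Cd79a* at means of 2.89 and 2.87 and *Cd79b* at 4.65 ± 0.18 in CTLs and 5.08 ± 0.08 in Tc17 cells (SD, n = 2 per group), and list means from 2.97 to 3.44, and of the 2 tested CD4+ T cell markers, *Cd4* did not pass (3.06 in both groups) and *Zbtb7b* was lower in Tc17 cells (-0.63 ± 0.14, limma adjusted p = 0.00923), with list means from 3.13 to 3.49. Of 6 markers of CD8+ T cells, 4 were higher in Tc17 cells (*Cd8a*, *Cd3d*, *Cd3e* and *Cd3g*, not *Cd8b1* or *Thy1*), against 8.22% of all tested genes, with a median difference of 0.70 and list means of 8.86 and 8.89 in CTLs and 9.41 and 9.46 in Tc17 cells. *Cd8a* missed the threshold when CTL replicate 1 (0.51) or Tc17 replicate 2 (0.63) was left out, and *Zbtb7b* when CTL replicate 2 (-0.53) or Tc17 replicate 2 (-0.54) was. The part of these markers in the chemokine differences was not tested.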

How the data were processed

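RNA of CD8+ T cells cultured for 2 days (2 CTL and 2 Tc17 samples) was amplified, labeled with biotin and hybridized to 1 Affymetrix array per sample. The authors deposited RMA values, taken here as log2. RMA corrects the background, equalizes the arrays by quantiles and summarizes probes, so a shift of all transcripts cannot be seen. For RMA the version, settings and log base are unstated, that is not given in the sources used here. Of 35557 rows, a platform annotation paired 21789 with 1 symbol, and 1621 rows with several symbols and 12147 outside the annotation were left out. Gene identifiers of 21698 rows matched RefSeq. Each of 19938 genes was read from its probe set with the highest mean, and 4985 genes under the 25th percentile of 2.591 were not tested.

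Tc17 was compared with CTL over 14953 genes with limma 3.58.1 under R 4.3.3 (functions lmFit and eBayes), unpaired and two-sided, and p-values adjusted by Benjamini-Hochberg were called at 0.05. The number of arrays limits the precision. The script was tested on simulated data. The 9 ligands and all lists were chosen with earlier results of these data known. All 9 are named, and from each list the 2 largest rises and 2 largest falls past the threshold. From the cell type lists the members above the filter are named, as are the 3 genes nearest in pattern. Markers under the filter, the other called regulators and receptors without a call are named beyond this rule. Alternatives were other filters, moderation, array scaling, probe set rules, the replicate number as a block and each array left out, which leaves a group with 1 sample assumed to vary like the other. Python 3.11.15, pandas 2.3.3 and matplotlib 3.10.9 were used.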

Additional observations from a re-analysis of the deposited data

How the results depend on the processing

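With 2 arrays per group, each value rests on few samples, and dim genes such as *Ccl20*, *Cxcl9* and *Ccl1* are compressed by background. The 2 ligands lower in Tc17 cells stayed at 2 under each of the 12 alternatives. The 2 that were higher became 1 when every row of the table was tested, where the count of receptors went from 4 to 2, that of regulators from 10 to 5 and that of all calls from 2342 of 14953 genes to 684 of 35557 rows. In that fit the marker calls of *Ly6g*, *Cd68*, *Zbtb7b*, *Cd8a*, *Cd3d* and *Cd3e* were lost too, as was *Ccl4* (0.88, adjusted p = 0.0778, the highest over its alternatives, whose lowest was 2.99e-04). Without CTL replicate 1 the calls over all genes fell to 1538, and without Tc17 replicate 2 to 1421. *Ccl9* passed without CTL replicate 1 (0.65), with adjusted p from 0.0297 to 0.759 over its alternatives. *Ccl3*, which passed in none, was -0.17 when CTL replicate 2 was left out, -0.01 without Tc17 replicate 2, and 0.38 at most. None of the other ligands passed in any alternative. *Irf8* and *Rel* were lost without CTL replicate 1, and *Irf8* also without CTL replicate 2 or Tc17 replicate 1. Over the tested genes, the deviations of the replicates hardly correlated between the groups (0.0195). With 2 arrays per group this cannot tell whether arrays of the same number shared an animal or a day. A fit with the replicate block gave 2 higher and 2 lower ligands and 2322 calls over all genes. Cyclic loess and median centring turned the direction of none of the 8 tested ligands.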
